A study of Arabidopsis thaliana with 15 samples.

Results

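A leaf darkened alone on a plant that stayed in the light was compared with a leaf of a plant darkened as a whole, after the same 3 days of darkness. The comparison set the 3 arrays labelled as individually darkened leaf (IDL) at day 3 against the 3 arrays labelled as darkened plant (DP) at day 3, so it used 6 of the 15 arrays of the series. Every probe set annotated with exactly 1 gene was kept, with or without a gene symbol, which gave 16174 genes. No difference between the groups was used to choose the arrays or the genes.

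All plants were Arabidopsis thaliana of accession Col-0, grown at 22 °C under short days, with 8 h of white light (180 µmol m−2 s−1) followed by 16 h of darkness. IDL leaves were fully expanded leaves under a foil-coated cover on plants that kept this day cycle, and 2 leaves were covered per plant. DP leaves came from whole plants placed in dark boxes. Each of the 3 biological replicates per group pooled 2 leaves of independent plants, taken at noon, and the other groups were IDL and DP leaves at day 6 and leaves in light at day 0. The rest of the plant thus differed too, since it was lit in the IDL group and dark in the DP group. The effects of the cover, the box and the light on the rest of the plant cannot be told apart. The light leaves were those of day 0, so every value beside light also carries 3 days of leaf age.

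A darkened leaf can no longer fix carbon and comes to draw on its own starch, protein and lipid. In Arabidopsis a single darkened leaf is known to yellow and senesce quickly, with its nutrients exported to the lit plant, while leaves of a plant darkened as a whole stay green for longer. Autophagy, which carries cytoplasm and parts of chloroplasts to the vacuole, the vacuolar proteases and the mitochondrial oxidation of amino acids are the routes usually studied in this setting.

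The deposited values were linear intensities with array medians of 18.6 to 18.96 in the 6 arrays, and they were put on a log2 scale here. Over 26676 probe sets the correlation was 0.984 to 0.988 within a group and 0.937 to 0.952 between IDL and DP, so every array was closer to its own group than to the other. No array stood apart from its group in these correlations. Precision is limited by the small number of arrays, and the median standard error of a difference was 0.13 on the log2 scale. The values came without detection calls. The lower quartile of all genes was 11.4 in IDL leaves and 11.3 in DP leaves, and a level near it may hold little signal of the gene itself. A fold is 2 to the power of the size of the log2 difference, so it is a ratio of geometric means of the arrays. It is to be read with the lower quartile in mind. All differences below are IDL minus DP in log2 units with their standard error, n = 3 arrays per group. The standard error comes from the limma fit of all 15 arrays. It draws on the spread within all 5 groups and over all genes, so it does not measure the spread of the 6 arrays alone. Each adjusted p value comes from the moderated two-sided test of limma over all 16174 genes. A gene is said to rise or fall, or to be called, where its adjusted p was under 0.05. In whole leaves a smaller number of cells of a type and less RNA per cell cannot be told apart.

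In IDL leaves 2705 of 16174 genes (16.7%) differed from DP leaves, with 1413 higher (8.74%) and 1292 lower (7.99%). The differences were mostly modest, with a median size of 0.63 on the log2 scale, or 1.55-fold, among the genes called. At least 2-fold differences were found in 292 genes that rose and 272 that fell, and at least 4-fold ones in 56 and 53. The median over all genes was 0.02. The split depended slightly on the scaling, since 52.2% of the genes called were higher with the deposited scale and 48.2% with each array centred on its median. Calls were concentrated among bright genes, with 38.5% of genes called in the highest quartile of level and 1.16% in the lowest. The shares of all genes set beside gene lists below are not matched for level. Genes with a symbol were called in 376 of 1625 cases (23.1%) and genes without one in 2329 of 14549 (16.0%), so most of what follows from named genes is a small part of the calls.

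**Figure D1:**
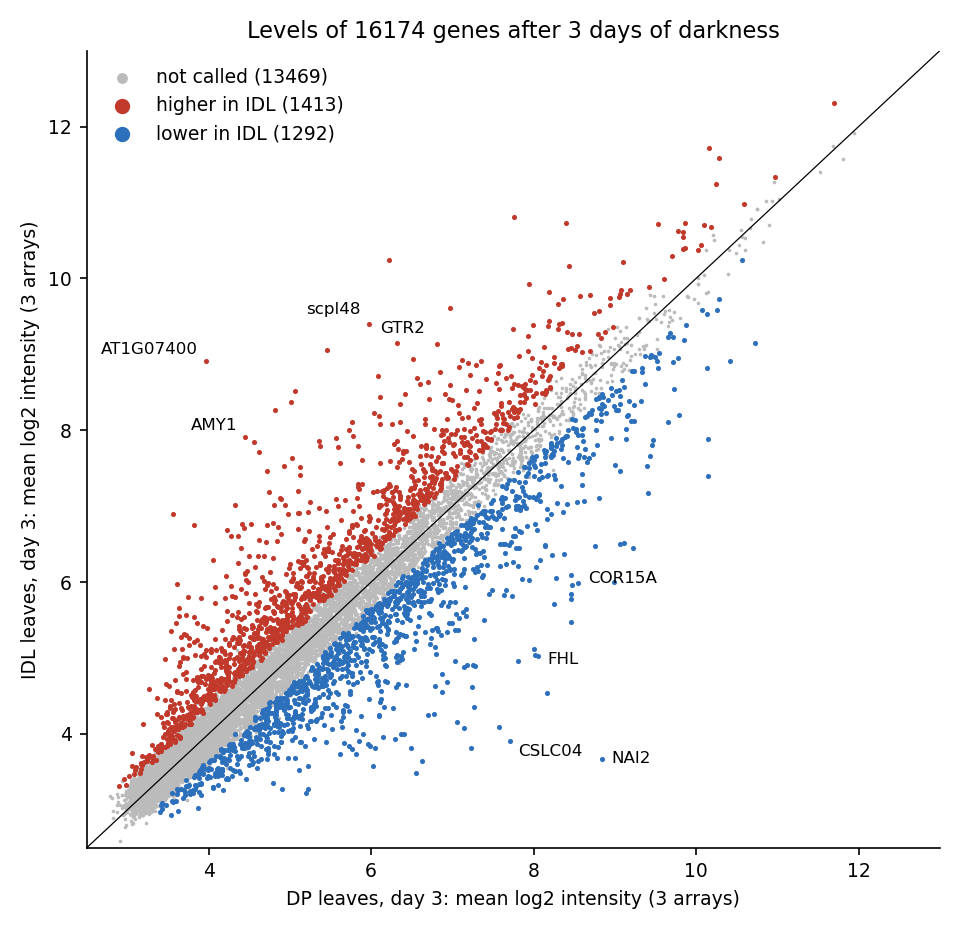
Mean log2 intensity of each of 16174 genes in IDL leaves at day 3 (vertical axis) against DP leaves at day 3 (horizontal axis), 3 arrays each. The line marks equal levels, red points are the 1413 genes higher in IDL, blue points the 1292 lower, and AT1G07400 and NAI2 lie among the points farthest from it on either side.

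The 15 largest rises lay between 2.74 and 4.94 and the 15 largest falls between -2.89 and -5.17, with no overlap of arrays between the groups, which the choice of these genes required. Only 4 of the 15 rises and 5 of the 15 falls carried a symbol in the annotation. None of the 30 had an adjusted p above 2.94e-07 in limma.

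AMY1 (AT4G25000), a secreted alpha-amylase, had intensities of 279, 212 and 233 in IDL leaves, against 16.7, 38.1 and 16.4 in DP leaves. All 3 IDL arrays were several times brighter than every DP array, and the rise of 3.46 ± 0.23 was 11.0-fold (limma, adjusted p = 5.15e-10). The serine carboxypeptidase-like gene scpl48 (AT3G45010) had 736, 548 and 775 in IDL leaves, against 73.8, 46.98 and 71.7 in DP leaves. Its rise of 3.43 ± 0.16 was 10.8-fold, and the groups were far apart. ATSPS4F (AT4G10120), a sucrose phosphate synthase that makes the precursor of sucrose, had 231, 234 and 223 in IDL leaves, against 20.8, 27.2 and 23.5 in DP leaves. The 3 arrays of each group lay close together, and the rise was 3.28 ± 0.15 (9.68-fold). CHAT (AT3G03480), which acetylates a leaf alcohol to a green leaf volatile, had 242, 178 and 217 in IDL leaves, against 21.5, 37.8 and 18.2 in DP leaves. Its second DP array was the brightest of that group and still far below every IDL array, and the rise was 3.10 ± 0.23.

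The glycosyltransferase UGT87A2 (AT2G30140) had 926, 851 and 606 in IDL leaves, against 153, 202 and 64.05 in DP leaves, with a rise of 2.64 ± 0.29. Its arrays spread more widely within both groups than those of the genes above, and its standard error was the largest of the 8. PAP20 (AT3G52780), a purple acid phosphatase, had 72.9, 49.4 and 68.6 in IDL leaves, against 11.6, 12.1 and 12.9 in DP leaves. The DP arrays were close to the lower quartile of all genes there, and the difference was 2.36 ± 0.17. SWEET4 (AT3G28007), a sugar transporter of the SWEET family, had 139, 80.3 and 115 in IDL leaves, against 22.6, 24.3 and 17.7 in DP leaves, a rise of 2.35 ± 0.19 (5.09-fold). GTR2 (AT5G62680), a transporter that loads glucosinolates into the phloem, had 531, 547 and 606 in IDL leaves, against 121, 138 and 85.5 in DP leaves, a rise of 2.32 ± 0.15 (4.98-fold). Neither transporter had an IDL array within the range of DP, which the choice of these genes required.

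Among genes without a symbol the largest rise was that of AT1G07400, with intensities of 675, 267 and 612 in IDL leaves, against 15.7, 18.9 and 12.9 in DP leaves. Its second IDL array was the lowest of that group and still far above DP, and the rise was 4.94 ± 0.23 (limma, adjusted p = 3.82e-12). Its DP arrays were dim, near the array medians or below them, so no fold is given. AT5G66440 had 1394, 1147 and 1098 in IDL leaves, against 64.9, 100.4 and 63.5 in DP leaves, a rise of 4.02 ± 0.18. AT1G62760 had 722, 398 and 533 in IDL leaves, against 44.7, 88.99 and 21.6 in DP leaves, a rise of 3.60 ± 0.30, and its DP arrays spread widely. The other genes without a symbol among the 15 rises were AT2G25625 (3.46), AT1G54575 (3.45), AT3G48020 (3.36), AT1G28650 (3.33), AT1G73750 (3.05), AT2G45040 (2.93), AT4G32250 (2.82) and AT1G75000 (2.74).

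The largest fall was that of NAI2 (AT3G15950), a protein needed to form endoplasmic reticulum bodies, which hold defence enzymes. NAI2 had intensities of 12.1, 14.99 and 11.3 in IDL leaves, against 590.0, 296 and 556 in DP leaves. The IDL arrays lay near the lower quartile of all genes and the second DP array was the lowest of its group, and NAI2 fell by 5.17 ± 0.22 (limma, adjusted p = 2.82e-12), given without a fold for that reason. PYK10, the enzyme stored in those bodies, and NAI1, the factor known to act on NAI2, were measured too and stood at -0.05 ± 0.14 (adjusted p = 0.888) and -0.15 ± 0.12 (adjusted p = 0.483). Among these members of the defence list only NAI2 was called.

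CSLC04 (AT3G28180), an enzyme that makes the glucan backbone of xyloglucan in the cell wall, had 15.9, 16.6 and 12.7 in IDL leaves, against 238, 156 and 248 in DP leaves, and it fell by 3.81 ± 0.17, with IDL arrays below the array medians and no fold given. EXO (AT4G08950), a cell wall protein induced by brassinosteroids, had 10.7, 9.26 and 14.1 in IDL leaves, against 115, 69.8 and 105 in DP leaves. Its IDL arrays lay at the lower quartile, and EXO fell by 3.08 ± 0.18, given without a fold. FHL (AT5G02200), which helps phytochrome A into the nucleus, had 29.7, 30.1 and 38.7 in IDL leaves, against 311, 244 and 246 in DP leaves, and fell by 3.03 ± 0.15 (8.15-fold lower). In each of these 3 genes every IDL array was below every DP array, as their choice required.

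The related transcription factor genes BZIP61 (AT3G58120) and BZIP34 (AT2G42380) both fell. BZIP61 had 13.5, 11.8 and 17.4 in IDL leaves, against 169, 133 and 149 in DP leaves and fell by 3.41 ± 0.26. BZIP34 had 13.9, 17.4 and 15.8 in IDL leaves, against 60.7, 70.2 and 82.9 in DP leaves and fell by 2.18 ± 0.22. COR15A (AT2G42540), a cold-regulated protein that protects chloroplast membranes, had 61.97, 90.3 and 45.8 in IDL leaves, against 377, 473 and 295 in DP leaves and fell by 2.56 ± 0.21 (5.89-fold lower). PRK (AT1G32060), the phosphoribulokinase that makes the acceptor of carbon dioxide in the Calvin cycle, had 24.2, 26.4 and 26.5 in IDL leaves, against 131, 135 and 103 in DP leaves and fell by 2.25 ± 0.14 (4.77-fold lower). Both genes were above the lower quartile in both groups.

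Among genes without a symbol AT5G19190 had 19.00, 24.4 and 27.1 in IDL leaves, against 294, 279 and 289.9 in DP leaves, and fell by 3.63 ± 0.16, and AT4G37220 had 14.3, 17.6 and 19.4 in IDL leaves, against 200.1, 184 and 189 in DP leaves, and fell by 3.49 ± 0.17. In both genes the DP arrays lay close together and far above every IDL array. The other genes without a symbol among the 15 falls were AT1G66100 (-3.07), AT5G16030 (-3.00), AT1G77640 (-2.99), AT5G44020 (-2.98), AT4G23820 (-2.97), AT4G16563 (-2.91), AT1G50040 (-2.90) and AT2G39850 (-2.89).

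**Figure D2:**
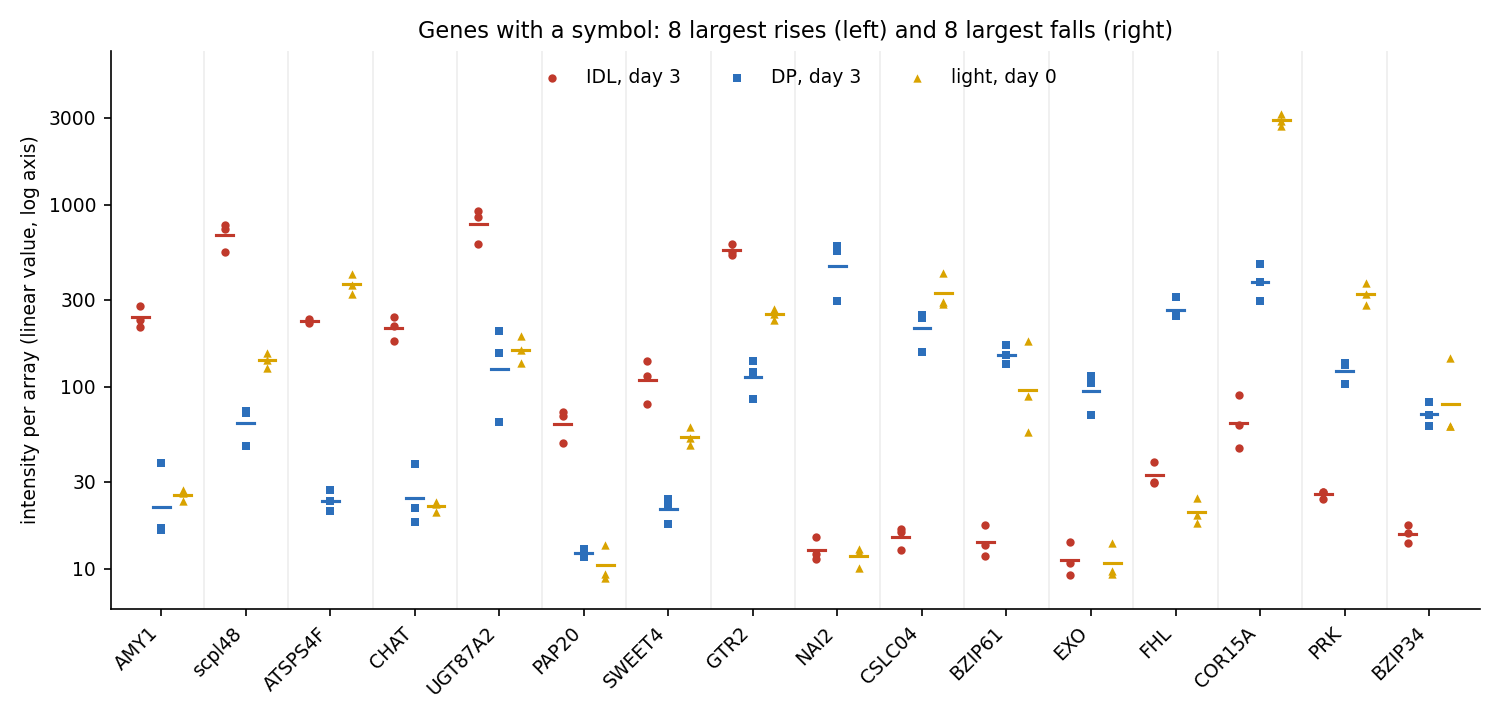
Intensity on each array (log axis) of the 8 largest rises and 8 largest falls among genes with a symbol, in IDL leaves (red circles), DP leaves (blue squares) and light leaves (yellow triangles), with a bar at the mean of the log2 values of 3 arrays. Red lies above blue in the left 8 genes and below it in the right 8, while the light level lies near DP in some, such as AMY1, and near IDL in others, such as NAI2.

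Autophagy genes were higher in IDL leaves. Of 15 measured members of the list 11 rose, none fell, and the median was 0.51, beside 8.74% of all genes higher and a median of 0.02. ATG8 proteins coat the growing autophagosome, and 9 family members were measured. APG8A (AT4G21980), of that family, had intensities of 70.5, 65.7 and 55.7 in IDL leaves, against 27.1, 25.2 and 27.7 in DP leaves. Every IDL array was more than 2 times as bright as every DP array, and the rise of 1.26 ± 0.12 was 2.39-fold (limma, adjusted p = 1.36e-07). ATG8H had 105, 117 and 81.1 in IDL leaves, against 49.95, 56.2 and 53.3 in DP leaves, a rise of 0.91 ± 0.14. APG8H (AT3G15580) had 431, 391 and 349 in IDL leaves, against 215, 241 and 219 in DP leaves, a rise of 0.79 ± 0.13. In both genes the groups were well apart.

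AT3G61960, a locus of the autophagy list without a symbol, had 463, 491 and 535 in IDL leaves, against 234, 278 and 249 in DP leaves, a rise of 0.97 ± 0.11, and AT3G53930, of the same list, rose by 0.75. ATG3 (AT5G61500), the enzyme that joins ATG8 to a membrane lipid, had 232, 224 and 233 in IDL leaves, against 145, 158 and 133 in DP leaves, a rise of 0.67 ± 0.13. The 4 members not called were ATG8C at 0.33 (adjusted p = 0.17), ATG8E at 0.10 (adjusted p = 0.714), AT2G37840 at 0.14 and AT5G50230 at 0.10. ATG8E was bright in both groups, with 162, 159 and 121 in IDL leaves, against 133, 141 and 135 in DP leaves, and its arrays overlapped. The ATG8G call at 0.48 was lost with median centring and without replicate 2 of DP (adjusted p = 0.0599), replicate 3 of DP or replicate 1 of IDL, and that of ATG8F at 0.48 with quantile normalization (adjusted p = 0.196).

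Vacuolar proteases were called in 1 direction too. Of 11 measured members of the protease and nuclease list 5 rose (45.5%, beside 8.74% of all genes) and none fell, with a median of 0.29. GAMMA-VPE (AT4G32940), a vacuolar processing enzyme that activates other vacuolar proteins, was among the brightest genes, with 3259, 2924 and 3106 in IDL leaves, against 1387, 1431 and 961 in DP leaves. It rose by 1.32 ± 0.19 (2.49-fold). The aspartic protease APA1 (AT1G11910) had 2579, 2430.4 and 2294 in IDL leaves, against 1221, 1189.9 and 1218 in DP leaves. Its arrays differed little within a group, and the rise was 1.01 ± 0.11. AT4G01610 (1.03 ± 0.16), AT4G04460 (0.98 ± 0.13) and the carboxypeptidase SCPL49 (0.66 ± 0.11) were the other members that rose. The related vacuolar processing enzymes ALPHA-VPE at 0.15 (adjusted p = 0.564) and BETA-VPE at 0.26 (adjusted p = 0.292) were not called.

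Ubiquitin-conjugating enzymes, which pass ubiquitin to proteins marked for breakdown, moved in both directions. Of 15 measured genes of the family, gathered by symbol after values had been seen, 6 rose and 2 fell, beside 8.74% of all genes higher and 7.99% lower, with a median of 0.22. UBC29 (AT2G16740) had 288, 225 and 193 in IDL leaves, against 74.6, 81.4 and 83.1 in DP leaves, a rise of 1.54 ± 0.16 (2.91-fold). UBC32 (AT3G17000), an enzyme at the endoplasmic reticulum, had 1744, 1701 and 1631 in IDL leaves, against 735, 852 and 646 in DP leaves, a rise of 1.19 ± 0.12. UBC22 fell by 0.61 and UBC28 by 0.43, and the UBC28 call was lost without replicate 3 of DP (adjusted p = 0.056).

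Genes of amino acid breakdown did not move as 1 group. Of 10 measured genes that break down branched chain amino acids or belong to the electron transfer flavoprotein route into the respiratory chain, 3 rose and 1 fell, beside 8.74% of all genes higher and 7.99% lower, with a median of -0.17. AT4G20930 rose by 0.79 ± 0.12. D2HGDH (AT4G36400), which oxidises 2-hydroxyglutarate and passes electrons into that route, had 190.5, 172 and 171 in IDL leaves, against 104, 117 and 103 in DP leaves, a rise of 0.72 ± 0.11. ALDH6B2 (AT2G14170), of valine breakdown, had 771, 843 and 692 in IDL leaves, against 1112, 1059 and 1058 in DP leaves, and fell by 0.49 ± 0.13. AT2G26800 stood at 0.38, a call lost under centring on reference genes, quantile normalization and 4 of the 6 single-array omissions. MCCB, ETFQO and ETFALPHA stood at -0.26, -0.32 and 0.12 and were not called. Without replicate 2 of IDL the count changed to 2 higher and 3 lower, and without replicate 3 of IDL to 3 higher and 0 lower.

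Of 4 measured genes of other amino acid routes 1 rose and 1 fell, beside 8.74% of all genes higher and 7.99% lower. AT5G38710 of the amino acid breakdown list had 239, 265 and 213 in IDL leaves, against 43.9, 57.3 and 43.03 in DP leaves, a rise of 2.32 ± 0.15 (4.99-fold, limma, adjusted p = 1.99e-10). The methionine gamma-lyase MGL (AT1G64660) had 235, 292 and 213 in IDL leaves, against 329.6, 415 and 422 in DP leaves, and fell by 0.66 ± 0.15. AT4G33150, the lysine-ketoglutarate reductase and saccharopine dehydrogenase that starts lysine breakdown, had 1251, 1569.5 and 1179.9 in IDL leaves, against 1022, 1308 and 1029 in DP leaves. Its arrays overlapped, and the difference of 0.25 ± 0.13 was not called (adjusted p = 0.251). DELTA-OAT (AT5G46180), the ornithine aminotransferase of arginine breakdown, is outside the lists and was named after its values were seen, with 850.1, 849 and 949.8 in IDL leaves, against 386, 462 and 402 in DP leaves and a rise of 1.09 ± 0.11.

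Of 17 measured genes of respiration, including the tricarboxylic acid cycle, 5 rose (29.4%, beside 8.74% of all genes) and 1 fell (5.88%, beside 7.99%), with a median of 0.20. NDB2 (AT4G05020), a NADH dehydrogenase that bypasses complex I, had 35.9, 46.6 and 44.1 in IDL leaves, against 27.3, 20.5 and 18.1 in DP leaves, a rise of 0.95 ± 0.16. SDH1-1 (AT5G66760), the flavoprotein of succinate dehydrogenase, had 168, 150.4 and 124 in IDL leaves, against 81.8, 86.2 and 64.2 in DP leaves, a rise of 0.93 ± 0.17, while its close relative SDH1-2 stood at -0.07 (adjusted p = 0.815). IDH-VI, a subunit of mitochondrial isocitrate dehydrogenase, rose by 0.71 ± 0.13. The cytosolic isocitrate dehydrogenase cICDH had 248, 198 and 221 in IDL leaves, against 291, 339 and 300.1 in DP leaves and fell by 0.48 ± 0.12. Most members of this list, 11 of 17, were not called. The shares of all genes are not matched for level, and 38.5% of genes in the highest quartile of level were called.

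In glycolysis, which turns sugar into pyruvate, 3 of 17 measured genes rose (17.6%, beside 8.74% of all genes) and 2 fell (11.8%, beside 7.99%), with a median of 0.06. AT3G52990 had 293, 265 and 308 in IDL leaves, against 155, 152 and 134 in DP leaves, a rise of 0.97 ± 0.12, and the glyceraldehyde phosphate dehydrogenase GAPC2 had 588, 679.8 and 609 in IDL leaves, against 731, 922 and 821 in DP leaves, and fell by 0.40 ± 0.13 (limma, adjusted p = 0.0373). The GAPC2 call was lost in 4 of the 6 single-array omissions, and the list's counts ranged from 2 to 3 higher and from 0 to 1 lower in them. TPI stood at -0.04 (adjusted p = 0.881). Of 4 measured genes of lipid breakdown AIM1, of peroxisomal beta-oxidation, rose by 0.52 ± 0.10, and the oil lipase SDP1 stood at 0.19.

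Of 4 measured genes of sucrose metabolism and transport ATSPS4F and AT1G62660 rose and none fell, beside 8.74% of all genes higher, and AT1G62660 had 291, 241 and 280.1 in IDL leaves, against 57.8, 85.6 and 66.2 in DP leaves, a rise of 1.97 ± 0.15 (3.92-fold). SWEET11, which exports sucrose toward the phloem, and SAG29, a further SWEET transporter, stood at -0.09 and -0.05. SWEET11 was bright and level, with 992, 946 and 991 in IDL leaves, against 1024, 986 and 1113 in DP leaves. Of 5 measured starch genes 1 rose and 2 fell, beside 7.99% of all genes lower. AMY1 rose as above, and DPE1 (AT5G64860), the plastid enzyme that recycles small maltooligosaccharides, had 43.2, 30.7 and 41.9 in IDL leaves, against 86.03, 75.8 and 76.9 in DP leaves, and fell by 1.06 ± 0.14. The branching enzyme SBE2.2 stood at -0.36, a call lost with centring on reference genes (adjusted p = 0.0515) and without replicate 1 or 3 of DP or replicate 1 of IDL.

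Most measured genes of carbon fixation and photorespiration were lower in IDL leaves. Of 3 measured Calvin cycle genes PRK and SBPASE fell, and of 4 photorespiration genes 3 fell, beside 7.99% of all genes lower. SBPASE (AT3G55800), the sedoheptulose bisphosphatase of the cycle, had 27.4, 28.3 and 29.1 in IDL leaves, against 56.2, 60.4 and 58.8 in DP leaves, and fell by 1.05 ± 0.13 (2.07-fold lower). RCA (AT2G39730), which activates Rubisco, had 519, 516 and 585 in IDL leaves, against 543, 530.0 and 532 in DP leaves. Its arrays overlapped, and the difference was 0.01 ± 0.11 (adjusted p = 0.971). HPR (AT1G68010), the peroxisomal hydroxypyruvate reductase, had 269, 387 and 245 in IDL leaves, against 874, 839.6 and 945 in DP leaves, and fell by 1.59 ± 0.14 (3.0-fold lower). AT1G11860 and AT1G80380 of the same list fell by 0.94 ± 0.14 and 0.78 ± 0.15, and LrgB, a glycolate and glycerate transporter of the plastid, stood at 0.32 ± 0.13 (adjusted p = 0.0973).

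In the antenna and photosystem list 3 of 9 measured genes fell and 1 was called higher, beside 7.99% of all genes lower and 8.74% higher, with a median of -0.30. PSAN, a subunit of photosystem I, had 239, 239.9 and 175 in IDL leaves, against 368, 435 and 393 in DP leaves, and fell by 0.88 ± 0.15. PSBY of photosystem II fell by 0.85 ± 0.13, and LHCB4.2, an antenna protein, fell by 0.72 ± 0.15. LHCB4.3 stood at 0.46 with DP levels at the lower quartile, and its call was lost with median centring, with centring on reference genes, with quantile normalization and in 5 of the 6 single-array omissions. Of 3 genes of the plastid NDH complex, which returns electrons to the photosynthetic chain, NdhL had 20.3, 16.8 and 17.5 in IDL leaves, against 42.1, 40.03 and 37.9 in DP leaves, and fell by 1.14 ± 0.12. PIFI, linked to the same activity, rose by 0.61 ± 0.12, and NdhN stood at -0.07.

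Of 5 measured genes of chlorophyll synthesis 2 fell, beside 7.99% of all genes, and none rose, with a median of -0.19. CHLM (AT4G25080), a methyltransferase of the magnesium branch, had 69.4, 104 and 80.9 in IDL leaves, against 162, 147 and 180.3 in DP leaves, and fell by 0.96 ± 0.14. PORB, which reduces protochlorophyllide, had 73.1, 75.7 and 94.5 in IDL leaves, against 118, 102 and 116 in DP leaves, and fell by 0.47 ± 0.13, and this call was lost without replicate 1 or 3 of DP or replicate 1 or 2 of IDL. The only measured breakdown gene, NOL (AT5G04900), which reduces chlorophyll b, had 331, 253 and 276 in IDL leaves, against 117, 139 and 113 in DP leaves, a rise of 1.22 ± 0.12 (2.32-fold).

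**Figure D3:**
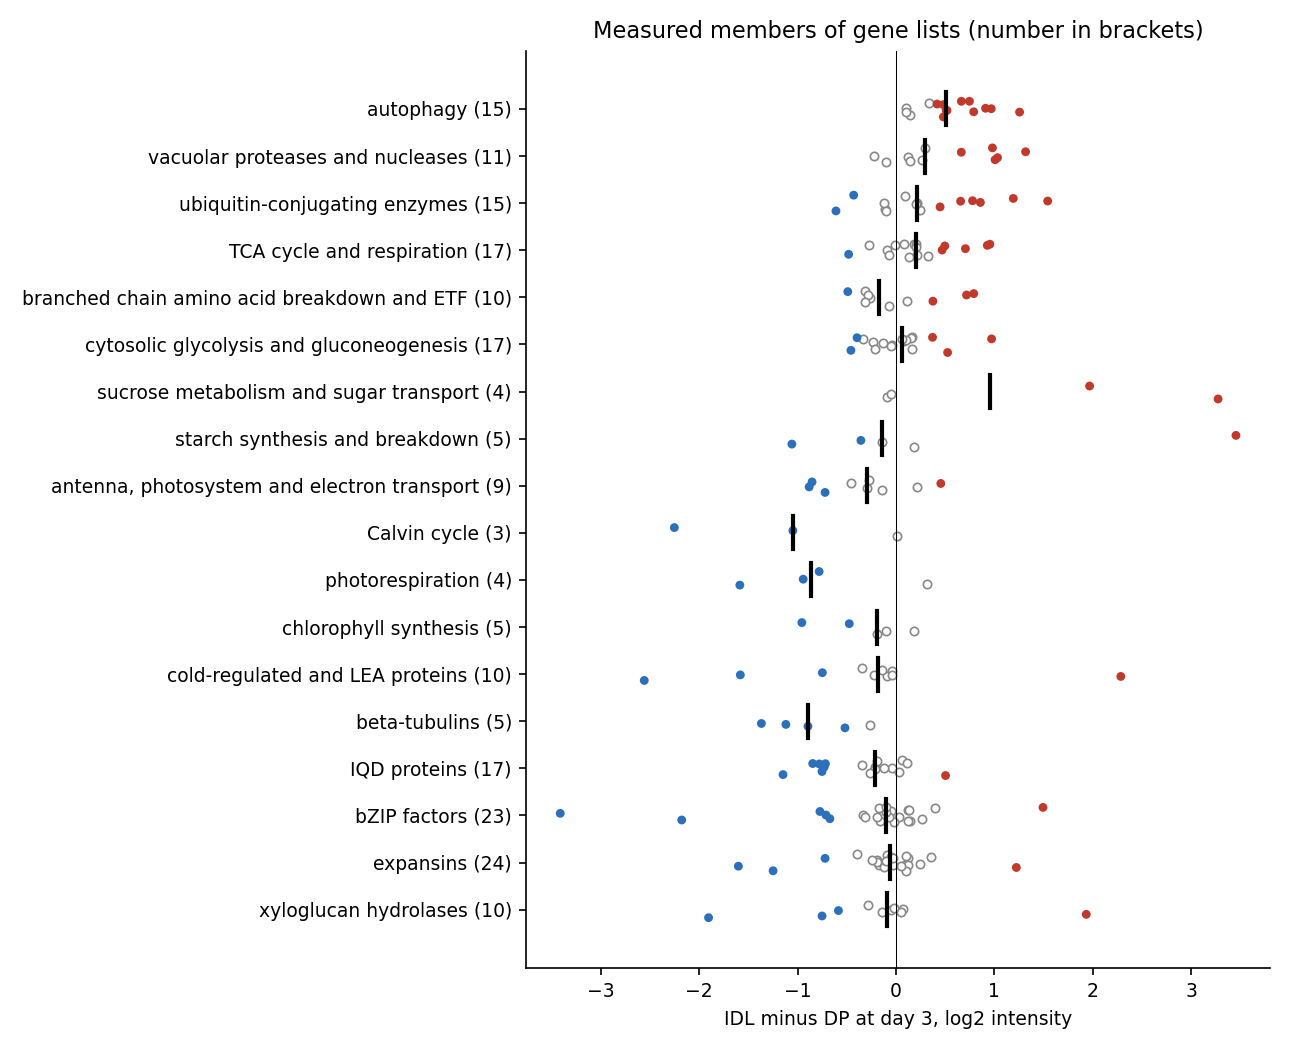
Difference IDL minus DP at day 3 (log2, horizontal axis) of each measured member of 18 gene lists, with the number measured in brackets. Filled red points were called higher, filled blue points lower, open points were not called and the black bar is the median. All 15 measured autophagy members lie to the right of 0, and 11 of them were called. All 5 measured beta-tubulins lie to the left of 0, and 4 of them were called. The beta-tubulins, ubiquitin-conjugating enzymes and IQD proteins were gathered by symbol after values had been seen, so the direction of their members is no independent result. Over all genes 8.74% were called higher and 7.99% lower.

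Of 36 entries for regulators and markers of senescence 6 were measured, so the list does not speak for the others. Of these 6 only WRKY22 was called, beside 16.7% of all genes. WRKY22 (AT4G01250), a transcription factor of immunity and dark-induced senescence, had 25.1, 30.8 and 19.5 in IDL leaves, against 93.9, 122 and 116 in DP leaves. It fell by 2.16 ± 0.14 (4.46-fold lower), while EIN3, a factor of ethylene signalling, stood at 0.16, WRKY6 at 0.34 and SAG101 at -0.24. In the SnRK1 and dark-inducible list 3 of 28 entries were measured, and none of the 3 was called. AKINBETA1, a subunit of the energy-sensing SnRK1 kinase, stood at -0.33 ± 0.12 (adjusted p = 0.0613), and it was called lower with median centring or quantile normalization.

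Of 23 measured bZIP transcription factors 1 rose (4.35%, beside 8.74% of all genes) and 5 fell (21.7%, beside 7.99%), with a median of -0.10. BZIP24 (AT3G51960), known from salt stress, had 149, 123 and 101 in IDL leaves, against 45.4, 43.9 and 41.3 in DP leaves and was the single rise, at 1.495. Besides BZIP61 and BZIP34, AT2G40620 fell by 0.77, bZIP52 by 0.71 and FD, a partner of the flowering signal, by 0.67. Of 7 WRKY factors 3 fell (42.9%, beside 7.99% of all genes) and 1 rose (14.3%, beside 8.74%). Apart from WRKY22, the calls of WRKY29, WRKY47 and WRKY20 were each lost when some single arrays were left out, so that between 1 and 3 fell.

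Cold-regulated and LEA genes, some of which protect dehydrating cells, split. Of 10 measured, 3 fell and 1 rose, beside 7.99% of all genes lower and 8.74% higher, with a median of -0.19. Beside COR15A, KIN2 (AT5G15970) had 549, 604 and 546 in IDL leaves, against 1648, 1760.5 and 1675 in DP leaves, and fell by 1.58 ± 0.12 (2.99-fold lower). COR27 had 230.1, 298 and 183 in IDL leaves, against 437, 360.3 and 379 in DP leaves, and fell by 0.75 ± 0.18. AtLEA4-1 (AT1G32560), an LEA protein, had 199.9, 142 and 172 in IDL leaves, against 24.2, 46.7 and 37.2 in DP leaves, a rise of 2.29 ± 0.20 (4.88-fold). COR15B, KIN1 and COR47 stood at -0.09, -0.04 and -0.23 and were not called.

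Of 5 measured auxin genes IAA29, a repressor of auxin response, had 10.5, 10.6 and 13.5 in IDL leaves, against 41.3, 26.6 and 38.3 in DP leaves, and fell by 1.60 ± 0.16. WES1, which joins auxin to amino acids, had 1012, 1024 and 764 in IDL leaves, against 604, 724 and 364 in DP leaves, a rise of 0.77 ± 0.21 (limma, adjusted p = 0.0134), and this call was lost without replicate 3 of DP, replicate 1 of IDL or replicate 2 of IDL. GH3.3, of the same enzyme family, stood at -0.56 ± 0.22 (adjusted p = 0.0914). In the defence list PDF1.4, a defensin-like gene, had 40.03, 53.9 and 47.7 in IDL leaves, against 124, 450.2 and 52.97 in DP leaves. Its groups overlapped and 1 DP array was far above the others, and PDF1.4, which fell by 1.62 ± 0.45, stood at -0.79 without replicate 2 of DP (adjusted p = 0.0994) and was -2.34 without replicate 3 of DP. Of 25 entries of glucosinolate synthesis only 2 were measured, and both rose, beside 8.74% of all genes. UGT74B1, which makes the desulfo-glucosinolate, rose by 0.62 ± 0.11 and AT2G31790 by 0.52 ± 0.12. At day 6 only 1 of the 2 was called higher. No gene was called among 3 of cytokinin response, 2 of heat shock response and 1 each of the clock (GI at -0.11) and of nitrate transport (NRT2.5 at 0.14). Only 2 of 9 heat shock entries were measured, so that list does not speak for other heat shock genes, including any among the loci without a symbol. At day 6 both measured heat shock genes were called higher, with a median of 1.67. The lists of abscisic acid response and of phytochrome and shade signalling had no measured member.

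In the tubulin and kinesin list, whose products build microtubules or move along them, 4 of 11 measured genes fell and 2 rose, beside 7.99% of all genes lower and 8.74% higher, with a median of -0.26. All 4 falls were among the 5 measured beta-tubulins, a set gathered by symbol after values had been seen. KINESIN-13A (0.67) and PFI (0.36) rose, and TUA6 (-0.33), TUBG1 (0.07) and KINESIN-12B (0.28) were not called. TUB5 (AT1G20010) had 16.6, 13.5 and 15.8 in IDL leaves, against 43.4, 39.1 and 35.8 in DP leaves, and fell by 1.37 ± 0.14. TUB6 (AT5G12250) had 90.5, 73.01 and 113 in IDL leaves, against 179, 219 and 194 in DP leaves, and fell by 1.12 ± 0.17. TUB7 fell by 0.89, the TUB1 call at -0.52 was lost in 5 of the 6 single-array omissions, and TUB9 stood at -0.26. Of 17 IQD proteins, which bind calmodulin and in part microtubules and were likewise gathered by symbol after values had been seen, 6 fell (35.3%, beside 7.99% of all genes) and 1 rose, with IQD22 lowest at -1.15 ± 0.13 and IQD20 highest at 0.50 ± 0.13.

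Of 24 expansins, proteins that loosen cell walls, 3 fell (12.5%, beside 7.99% of all genes) and 1 rose (4.17%, beside 8.74%), so the counts were near those of all genes. The falls were EXLA1 (AT3G45970), which had 53.5, 62.8 and 57.03 in IDL leaves, against 180.4, 168 and 177 in DP leaves and fell by 1.60 ± 0.17, EXPA8, which fell by 1.249, and EXPA16, whose call at -0.72 was lost without replicate 2 of DP or replicate 1 of IDL. EXLB1 rose by 1.22 ± 0.21. Of 10 xyloglucan hydrolases and transferases 3 fell (30%, beside 7.99% of all genes) and 1 rose (10%, beside 8.74%). XTH33 (AT1G10550) had 16.6, 15.6 and 15.8 in IDL leaves, against 56.4, 54.1 and 70.4 in DP leaves, and fell by 1.91 ± 0.18, and XTH29 (AT4G18990) had 101, 102 and 80.1 in IDL leaves, against 24.9, 27.02 and 21.95 in DP leaves, a rise of 1.94 ± 0.15. In these small wall families most members, 20 of 24 and 6 of 10, were not called.

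Of 46 glycosyltransferases of the UGT family, which attach sugars to hormones and other small molecules, 12 rose (26.1%, beside 8.74% of all genes) and 3 fell (6.52%, beside 7.99%), with a median of 0.05. Beside UGT87A2, UGT73B2 rose by 1.27 ± 0.15, UGT85A2 by 1.14 ± 0.17 and UGT73B5 by 0.86 ± 0.21, while UGT72E1, of phenylpropanoid metabolism, fell by 1.08 ± 0.16. The next 3 families were gathered by symbol after values had been seen. Of 32 serine carboxypeptidase-like genes 3 rose (9.38%, beside 8.74% of all genes) and 5 fell (15.6%, beside 7.99%), and beside the rises of scpl48 and SCPL49 given above SCPL27 fell by 1.11 ± 0.16. Of 22 beta-glucosidases 1 rose (4.55%) and 5 fell (22.7%), with BGLU46 lowest at -1.06 ± 0.26. Of 23 TBL proteins, which resemble the wall protein TBR, 2 rose and 2 fell (8.70% each), close to the shares of all genes. Of 8 genes of the alcohol and aldehyde dehydrogenase list 5 fell, beside 7.99% of all genes, and none rose, with a median of -0.47. ALDH11A3 (AT2G24270), which makes NADPH from glyceraldehyde phosphate, had 196, 220.4 and 263 in IDL leaves, against 654, 805 and 655 in DP leaves, and fell by 1.64 ± 0.12 (3.12-fold lower), and without replicate 1 of IDL 3 of the 8 fell.

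The level in light leaves at day 0 sets both darkened groups beside the state before darkness. The differences of IDL and of DP from light share the same 3 light arrays and are therefore given side by side only. AMY1 had 23.7, 26.1 and 27.1 in light leaves, so IDL leaves stood at 3.23 and DP leaves at -0.23 relative to light. ATSPS4F had 325, 361 and 418 in light, with IDL leaves at -0.67 and DP leaves at -3.95. The IDL to DP difference of AMY1 thus lay mostly in the IDL leaves, and that of ATSPS4F mostly in the DP leaves. CHAT had 3.25 in IDL and 0.15 in DP, and SWEET4 1.03 and -1.32.

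NAI2 had 12.9, 12.3 and 10.04 in light leaves, with IDL leaves at 0.12 and DP leaves at 5.30 relative to light. FHL (0.67 in IDL and 3.69 in DP), EXO (0.05 and 3.13), AT4G37220 (0.45 and 3.94) and WRKY22 (0.59 and 2.74) were likewise nearer to light in IDL leaves than in DP leaves. CSLC04 and BZIP61 showed the other pattern, with -4.45 in IDL and -0.65 in DP for CSLC04 and -2.78 and 0.63 for BZIP61. PRK, SBPASE, HPR and COR15A were below light in both groups and lower in IDL, with -3.65 in IDL and -1.40 in DP for PRK, -5.24 and -4.19 for SBPASE, -2.44 and -0.86 for HPR and -5.52 and -2.96 for COR15A.

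Autophagy and protease genes were above light in both groups in several cases and higher in IDL. APG8A had 2.23 in IDL and 0.97 in DP relative to light, ATG8B 3.06 and 2.55, and GAMMA-VPE 2.11 and 0.79. APA1 had 1227, 1179.7 and 1294 in light, with 0.98 in IDL and -0.03 in DP. AT4G33150 was far above light in both groups, at 6.03 in IDL and 5.78 in DP, and MGL at 3.32 and 3.98.

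Some genes were called on opposite sides of light. AT1G73750 had 1792, 1720.0 and 1865 in IDL leaves, against 260.4, 259 and 151 in DP leaves, and light leaves had 911, 1124 and 1157, so it stood at 0.76 in IDL and -2.29 in DP. The serine carboxypeptidase-like scpl48 had 126, 141 and 153 in light leaves, and it stood at 2.28 in IDL and -1.15 in DP. AT1G75000 (1.83 in IDL and -0.91 in DP), AT2G31560 (1.42 and -1.18) and AT4G29700 (1.05 and -1.41) completed the 5 with the largest positive difference. In the other direction AT4G16563 had 18.7, 25.2 and 18.2 in IDL leaves, against 187, 116 and 168 in DP leaves, and 37.5, 28.9 and 36.5 in light, with -0.74 in IDL and 2.17 in DP. AT5G19190 (-3.19 in IDL and 0.44 in DP), AT5G16030 (-1.72 and 1.27), AT5G44020 (-1.86 and 1.12) and AT4G23820 (-1.57 and 1.40) were below light in IDL and above it in DP.

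**Figure D4:**
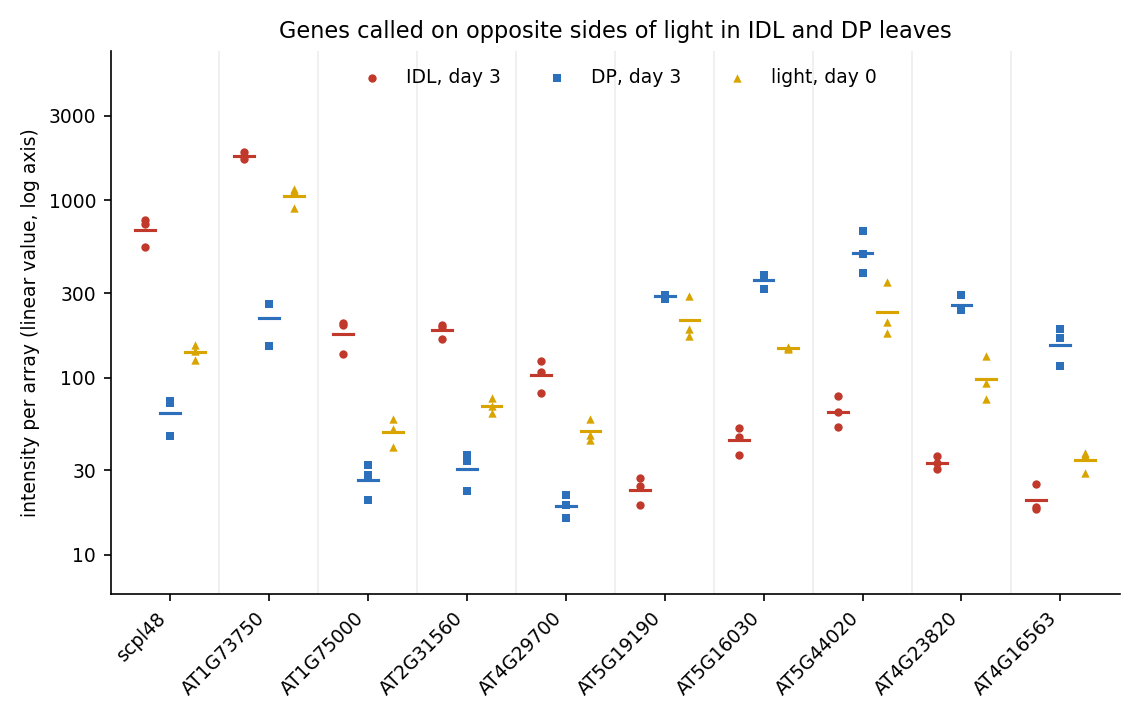
Intensity on each array (log axis) of the 5 genes with the largest positive and the 5 with the most negative IDL minus DP difference at day 3 among genes called on opposite sides of light. IDL leaves are red circles, DP leaves blue squares and light leaves yellow triangles, each with a bar at the mean of the log2 values of 3 arrays. The light bar lies between the IDL and DP bars in all 10 genes, which the choice of these genes required.

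The same comparison at day 6, on arrays of other leaves, asks whether the day 3 differences were still present. At day 6, 4699 genes (29.1%) differed between IDL and DP, with 2450 higher and 2249 lower. Of the 1413 genes higher in IDL at day 3, 1112 (78.7%) were called higher at day 6 and 13 lower, and these 1112 made up 45.4% of the genes higher at day 6. Of the 1292 genes lower at day 3, 960 (74.3%) were called lower at day 6 and 22 higher, and these 960 made up 42.7% of the genes lower at day 6. Among genes that differed at least 2-fold at day 3, 284 of 292 and 255 of 272 were called the same way at day 6. Across the 16174 genes, which are not independent replicates, the differences of both days correlated at r = 0.753.

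All 15 of the largest rises and 14 of the 15 largest falls of day 3 were called the same way at day 6. At day 6 AMY1 had 422, 445 and 440.3 in IDL leaves, against 16.4, 21.5 and 28.7 in DP leaves, a difference of 4.33. NAI2 had 14.3, 20.6 and 19.6 in IDL leaves, against 799.5, 1247 and 879 in DP leaves at day 6, a difference of -5.74. Counts of list members at day 6 stand beside 15.1% of all genes higher and 13.9% lower. Of the 15 autophagy genes 11 were higher at day 6, with a median of 0.84, and of the 11 protease genes 7, with a median of 0.71. In the respiration list 10 of 17 were higher and 2 lower. Other lists had another balance of calls than at day 3. Of the 9 antenna and photosystem genes 3 were higher and 2 lower at day 6, with a median of 0.02, against 1 higher and 3 lower at day 3. Of the 22 beta-glucosidases 5 were higher and 1 lower at day 6, against 1 higher and 5 lower at day 3. Of the 5 starch genes 3 were higher and 1 lower, of the 23 bZIP factors 6 higher and 5 lower, and of the 10 genes of branched chain amino acid breakdown 3 higher and 5 lower at day 6. These changes in count were not tested as such.

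Where the difference itself changed between the days was tested as the interaction of treatment and day, which called 867 genes (5.36%), 507 in the positive and 360 in the negative direction. EXO was the fall no longer called at day 6, with 39.6, 46.1 and 38.8 in IDL leaves, against 61.8, 51.8 and 50.1 in DP leaves. Every IDL array of EXO still lay below every DP array. The difference had shrunk to -0.39 (adjusted p = 0.124), with an interaction of 2.68 ± 0.26 (limma, adjusted p = 8.57e-07). PAP20 grew to 4.60 at day 6 (interaction 2.23, limma, adjusted p = 4.26e-06). SWEET4 shrank to 0.66 (interaction -1.69, limma, adjusted p = 0.000314). DPE1 changed direction, with 79.7, 81.1 and 83.7 in IDL leaves, against 43.3, 55.4 and 48.4 in DP leaves at day 6, a difference of 0.74 against -1.06 at day 3 and an interaction of 1.80 ± 0.20. IAA29 stood at -0.24 at day 6 (interaction 1.35). The difference of ATG8H was larger, with 1.94 at day 6 (interaction 1.02, limma, adjusted p = 0.00326).

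**Figure D5:**
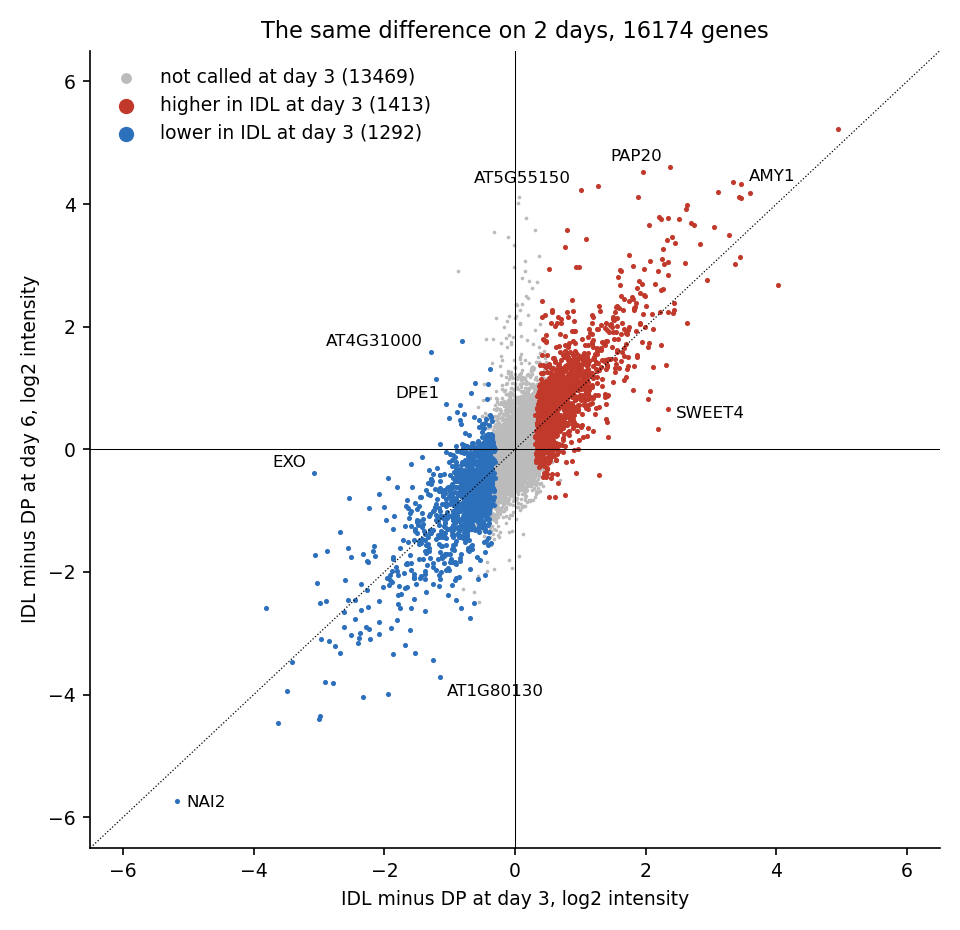
Difference IDL minus DP at day 6 (vertical axis) against day 3 (horizontal axis), both log2, for 16174 genes, with genes called higher at day 3 in red, lower in blue and others in grey. The dotted line marks equal differences, NAI2 and AMY1 lie far out on the same side on both days, and EXO, SWEET4 and PAP20 lie away from the line.

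Cell type markers were thinly covered. Of 34 marker entries for guard cells, phloem, xylem, epidermis and mesophyll 4 were measured, and xylem and epidermis had none. The mesophyll marker RCA was brighter than 99.0% of all genes in both groups. The guard cell factor FMA had 44.8, 53.8 and 55.8 in IDL leaves, against 49.04, 57.1 and 39.97 in DP leaves and stood at 0.09 (adjusted p = 0.79), while the other guard cell entry, AT1G22690, had 22.4, 24.3 and 23.4 in IDL leaves, against 41.6, 39.3 and 56.4 in DP leaves and fell by 0.95 ± 0.13. The part of cell type shares in the differences was not tested. Of 20 preset genes 8 were measured, and of these the isocitrate lyase gene ICL had 11.1, 10.6 and 11.00 in IDL leaves, against 11.1, 13.3 and 10.4 in DP leaves, near the lower quartile, and stood at -0.08 (adjusted p = 0.779). None of 6 measured reference genes, chosen as stable in other Arabidopsis data, was called, and they lay between -0.27 and 0.27.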

How the data were processed

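Leaf transcripts of Arabidopsis thaliana were measured on 15 Affymetrix arrays, 3 per group. The values the authors deposited are linear intensities, 1 for each of 26676 probe sets on each array, made with the R package oligo per the submitters' processing notes. Its version, the background correction, the normalization and the choice of probe sets were not given in the sources used here.

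Values were converted to log2 with no pseudocount and no filter. Of the probe sets, 16179 had exactly 1 gene, 588 several and 9909 none, and the brightest probe set stood for each gene with more than 1. Locus codes were matched to symbols in RefSeq's gene table for TAIR10.1, and 16067 of 16179 probe sets matched. All 15 arrays were fitted with limma 3.58.1 in R 4.3.3 (lmFit and eBayes, a mean per group, 20.52 total degrees of freedom), and p-values were adjusted by Benjamini-Hochberg over 16174 genes. The pathway lists held 688 entries, of which 151 (21.9%) were measured. On simulated data for IDL against DP at day 3 (16174 genes) the fit recovered 54% of 1.5-fold and 96% of 2-fold differences.

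Named genes are the 15 largest rises and falls without overlap of arrays, the 8 largest each way with a symbol, up to 4 called members of each list each way, 20 preset genes where measured, the 4 largest interactions each way and the 5 largest differences each way across light. Other list members were named after their values were seen. The lists and the rule were chosen with earlier results of these data known.

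Alternatives were other thresholds, a dim gene filter, the mean of probe sets, all probe sets, median, reference gene and quantile scaling, an intensity trend, array weights, only the 6 arrays, the replicate number as a block, a pseudocount of 16 and leaving out each array. Replicate numbers were checked for pairing: arrays of the same number correlated in their deviations at 0.0184 to 0.0663 and others at -0.0451 to 0.0115, so the numbers were not taken to pair samples.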

Additional observations from a re-analysis of the deposited data

Results flagged for a closer look

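Differences between IDL and DP that changed between day 3 and day 6 were found by the interaction of treatment and day in the limma fit of all 15 arrays, with 3 arrays per group. The values below are the IDL minus DP difference at day 6 minus that at day 3, in log2 units. Among genes called at day 3, the strongest positive interactions were those of AT5G55150 (3.22), AT5G51440 (3.03), AT4G31000 (2.87) and AT3G15650 (2.79). AT5G55150 had intensities of 26.05, 20.3 and 35.3 in IDL leaves, against 12.03, 12.7 and 14.99 in DP leaves at day 3 and 345, 259 and 245 in IDL leaves, against 16.8, 15.98 and 12.3 in DP leaves at day 6. AT4G31000 turned round, with 10.4, 15.7 and 13.2 in IDL leaves, against 36.2, 22.5 and 38.2 in DP leaves at day 3 and 102, 123 and 101 in IDL leaves, against 37.1, 32.2 and 39.1 in DP leaves at day 6. AT3G15650 was near the lower quartile in DP leaves at day 3.

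The strongest negative interactions were those of AT1G80130 (-2.57), AT1G72645 (-2.19), AT3G54630 (-2.07) and AT1G63570 (-2.05). AT1G80130 had 41.97, 56.8 and 64.5 in IDL leaves, against 138, 72.02 and 168 in DP leaves at day 3 and 20.1, 22.2 and 22.2 in IDL leaves, against 238, 367 and 257 in DP leaves at day 6. AT3G54630 stood at -0.69 at day 3, a call lost without replicate 2 of DP (-0.30, adjusted p = 0.185).

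Of the genes with the largest differences at day 3, the difference moved toward higher values in EXO (2.68), PAP20 (2.23), AT1G66100 (1.35), AT2G39850 (1.23), CSLC04 (1.23), AT1G28650 (1.03), AT1G75000 (0.915) and FHL (0.851), and in the preset gene ATG8H (1.02). It moved toward lower values in AT5G19190 (-0.835), AT4G16563 (-0.887), GTR2 (-0.945), AT5G66440 (-1.34), AT5G44020 (-1.37), AT5G16030 (-1.41) and SWEET4 (-1.69). In CSLC04, FHL, AT1G66100 and AT2G39850 the fall was smaller at day 6, and in AT5G19190, AT4G16563, AT5G44020 and AT5G16030 it was larger. Groups of 3 arrays were not tested for single arrays far from the others.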

How the results depend on the processing

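The count of 2705 genes called at day 3 became 1825 at an adjusted p under 0.01, 564 with a 2-fold minimum and 5416 with all 26676 probe sets in the fit, and 2509 to 2783 with the scaling, filter, prior, weight, block and pseudocount alternatives. The main 1413 higher and 1292 lower became 937 higher and 888 lower at an adjusted p under 0.01 and 292 and 272 with the 2-fold minimum, while the fit of all probe sets called 2743 probe sets higher and 2673 lower. Leaving out 1 array gave 2189 to 2402 genes called, 1127 to 1262 higher and 1062 to 1144 lower. With all probe sets more features were tested, which is part of the larger counts. The share of calls that were higher lay between 48.2% (median centring, 1291 higher and 1387 lower) and 52.6%. With the replicate number as a block 2699 genes were called, 1404 higher and 1295 lower, and each IDL array's deviations correlated best with those of the DP array of its own number, which is a hint from the data and not from the design.

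At day 6 the 4699 genes called became 1115 with a 2-fold minimum and 8852 with all probe sets. The interaction called 867 genes, and 426 at an adjusted p under 0.01, 298 with a 2-fold minimum and 1852 with all probe sets. Of 233 genes described and called, 34 lost the call at an adjusted p under 0.01, 10 with a pseudocount, 4 with median centring, 5 with centring on reference genes, 1 with the block and 15 to 29 with 1 array left out, and none changed direction. The cause of these losses was not tested. A search of promoters for motifs was not run, since no promoter sequence was used here.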

Other observations

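The 6 genes named here and next lay outside the lists and were chosen after their values were seen, so they stand for themselves and not for a group. GR1 (AT3G24170), a glutathione reductase, had intensities of 275, 258 and 319 in IDL leaves, against 95.8, 107 and 101 in DP leaves, a rise of 1.48 ± 0.13 (2.8-fold, limma, adjusted p = 1.53e-08). Light leaves had 319.7, 296 and 330.2, so GR1 stood at -0.15 in IDL and -1.64 in DP relative to light. GSTL3 (AT5G02790), a lambda glutathione transferase, had 949.6, 823 and 845 in IDL leaves, against 407, 438 and 308 in DP leaves, a rise of 1.20 ± 0.14, with IDL at -0.79 and DP at -1.99 relative to light. The cytochrome c gene CYTC-2 had 75.7, 66.5 and 49.8 in IDL leaves, against 28.8, 28.9 and 25.8 in DP leaves, a rise of 1.18 ± 0.17. In the family list 1 of 13 glutathione transferases was called, as higher (7.69%, beside 8.74% of all genes). It was GSTU20, and that call was lost in 3 of the 6 single-array omissions.

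The zinc finger factor STZ (AT1G27730) had 138, 126 and 116 in IDL leaves, against 38.3, 58.1 and 31.5 in DP leaves, a rise of 1.62 ± 0.24. GH3.17 (AT1G28130), which joins auxin to glutamate, had 91.6, 88.2 and 66.7 in IDL leaves, against 28.99, 30.4 and 19.3 in DP leaves, a rise of 1.66 ± 0.20. The photosystem II assembly factor PSB27 (AT1G03600) had 175, 247 and 152 in IDL leaves, against 486, 525 and 530.3 in DP leaves, and fell by 1.45 ± 0.16. In all 3 genes the groups did not overlap, but the genes were chosen with these values known.

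Probe sets with no gene or several genes in the annotation were left out above. When all 26676 probe sets were fitted together, 2627 of these 10497 (25.03%) differed between IDL and DP at day 3, 1287 higher and 1340 lower, beside 17.2% of the probe sets with 1 gene in the same fit. At least 2-fold differences were found in 644 of them, and the most extreme values were 5.62 and -5.04.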
